A study of Homo sapiens with 12 samples.

Results

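RNA levels of 37 genes of the vacuolar proton pump (V-ATPase) and the lysosome were examined in 2 diffuse large B-cell lymphoma (DLBCL) cell lines before and after they acquired resistance to venetoclax, an inhibitor of the survival protein BCL2. The rule lists them by name, as 15 proton pump genes and 22 lysosomal genes, and not by a measured value, and each was found by the GENCODE 44 symbol of its Ensembl identifier among the 60675 identifiers counted. SUDHL6 and SUDHL16 are established human DLBCL lines bought from a cell bank, and both are sensitive to venetoclax as parental cells. The resistant cells of each line were derived from its parental cells by stepwise selection with venetoclax. They were maintained on the drug, with a dose of 10 times the parental IC50 or more as the mark of resistance. Both kinds of cells were moved to fresh media for experiments, and whether venetoclax was present when RNA was taken is not stated. Drug exposure and the long culture under selection cannot be told apart from resistance here. There were 3 RNA-sequencing libraries of each of the 4 groups, 12 in all. SUDHL6 RNA was prepared with NEBNext Ultra II and run on a HiSeq, and SUDHL16 RNA was prepared with the stranded Ribo-Zero Plus kit of Illumina and run on a NovaSeq. Kit and instrument were shared within a line and cannot be told apart from it. These data hold 1 resistant derivative of each line. The labels do not say that the 3 libraries of a group came from separate cultures, so p-values measure the spread between libraries, which may be technical.

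The V-ATPase is a rotary pump that hydrolyses ATP in its cytosolic V1 sector and moves protons through its membrane-embedded V0 sector, which makes the lumen of lysosomes and endosomes acidic. Lysosomal hydrolases need this acidity to break down proteins, glycogen and lipids, and the pump also takes part in sensing amino acids for the kinase complex mTORC1. TFEB and TFE3, transcription factors that mTORC1 holds in the cytosol when nutrients are plentiful, bind a palindromic E-box in the promoters of many V-ATPase and lysosome genes.

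The letters of this E-box were searched in the promoters of the members, since 2 members encode the factors that bind it. RefSeq promoters of GRCh38.p14, each 250 bases before and 50 bases after a start site, were at hand for 27 of the 37 members, 10 of the pump and 17 lysosomal. TCACGTGA was found in 5 of the 27 (18.5%), against 0.980% of all 35116 promoters of the same length. The shorter CACGTG, which the longer motif contains, was found in 9 of the 27 (33.3%), against 7.26% of all promoters. Both motifs are palindromes, so a match on one strand is a match on the other. Of the 3 members that changed with resistance in either line, described next, GAA carried TCACGTGA and the promoters of ATP6AP1 and ATP6V0A1 held neither motif. The GAA promoter is shown for the 250 bases before its start site (GRCh38.p14, chr17:80101331-80101580, plus strand), with both copies of TCACGTGA in capitals, beginning at positions -77 and -32 from the start site.
GAA: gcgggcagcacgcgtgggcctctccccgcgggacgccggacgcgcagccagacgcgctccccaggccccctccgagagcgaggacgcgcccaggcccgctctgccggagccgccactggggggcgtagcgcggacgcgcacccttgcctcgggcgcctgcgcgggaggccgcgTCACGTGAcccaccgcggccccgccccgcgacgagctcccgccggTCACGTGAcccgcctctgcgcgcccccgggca
The same letters stood close to the start sites of 4 other members, which are shown as 30-base windows because they carry the motif of GAA and were not called in either line. Like GAA, LAMP1 and MCOLN1 held 2 copies each, beginning at -29 and -2 in LAMP1 and at -42 and -15 in MCOLN1. Only the copy farther from the start site is shown for them. The windows lie at chr16:67481199-67481228 (minus strand) for ATP6V0D1, chr9:114587699-114587728 (plus strand) for ATP6V1G1, chr13:113297199-113297228 (plus strand) for LAMP1 and chr19:7522571-7522600 (plus strand) for MCOLN1, and the capitals mark the motif.
ATP6V0D1: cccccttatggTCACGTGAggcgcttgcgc
ATP6V1G1: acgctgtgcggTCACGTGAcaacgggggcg
LAMP1: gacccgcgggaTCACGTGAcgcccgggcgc
MCOLN1: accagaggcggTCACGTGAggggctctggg

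Total counts per library were 33992784 to 40885665 in SUDHL6 and 4131927 to 22068221 in SUDHL16. The SUDHL16 parental library CE-26 had the lowest total and stood apart, with 55.4% of its counts on protein-coding genes and 31.9% on identifiers outside GENCODE 44. Fold changes in SUDHL16 are therefore given with and without CE-26. Levels are given as CPM, counts scaled to the library size after TMM normalization, and all 7 B cell markers reached 1 CPM in each group. Monocyte and macrophage markers, of interest because those cells are rich in lysosomes, summed to at most 0.743 CPM in SUDHL6 and at most 1.66 CPM in SUDHL16 outside CE-26, where they summed to 13.3 CPM with 5 of 7 markers reaching 1 CPM. Of the fibroblast markers, DCN was at 19.6 to 25.3 CPM in the SUDHL16 parental libraries and at most 0.422 CPM in the resistant ones, while COL1A1 was at 0 in all 3 parental libraries, and the 3 markers summed to 19.6 to 35.2 CPM against 0 to 0.422 CPM. The 4 T cell markers summed to 18.0 to 22.9 CPM in parental and 23.1 to 27.9 CPM in resistant SUDHL16 libraries. Of these, CD3E was at 1.15 to 4.44 CPM in parental and 10.8 to 13.3 CPM in resistant libraries, higher without overlap. TRAC went the other way, at 16.75 to 19.04 CPM in parental and 10.1 to 15.6 CPM in resistant libraries, lower without overlap. CD3D and CD2 were at 0 in the resistant libraries. The part of these marker genes in the SUDHL16 results was not tested. In bulk RNA, fewer cells of a type and less RNA per cell cannot be told apart.

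In SUDHL6, 36 members had enough counts to be tested, and resistance left most of them near their parental level. A gene was called when its adjusted p was under 0.05 (edgeR quasi-likelihood test, Benjamini-Hochberg over all genes tested) and its level changed at least 1.5-fold. ATP6AP1 was the only member called, and it was lower. This is 2.78% of the members tested, against 8.96% of all 16662 genes tested (4.31% called higher and 4.65% called lower). By the adjusted p alone, 12 of the 36 members passed (33.3%, against 37.3% of all genes), 3 of them higher and 9 lower. Counts at an unadjusted p under 0.05 are given below without the share of all genes, which in SUDHL6 is at least that 37.3%. The groups did not overlap for 15 members (41.7%, against 47.9% of all genes), 6 of them higher and 9 lower in resistant cells. The median log2 fold change was -0.01 for the 36 members, -0.01 for the 15 pump members and -0.01 for the 21 lysosomal members tested, and -4.2e-05 for all genes. A change within 0.5 on the log2 scale was seen in 34 of the 36 members and in 83.0% of all genes.

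In SUDHL16, 35 members were tested and 2 were called, ATP6V0A1 lower and GAA higher. This is 5.71% of the members, against 5.30% of all 15708 genes tested (3.20% higher and 2.10% lower). Without CE-26 the same 2 members were called, against 10.0% of 16280 genes (6.73% higher and 3.32% lower). The groups did not overlap for 11 members (31.4%, against 26.6% of all genes), 8 of them higher and 3 lower in resistant cells. Without CE-26 they did not overlap for 17 members (48.6%, against 42.2% of all genes), 12 of them higher and 5 lower. The median log2 fold change was 0.18 for the 35 members, 0.05 for the 15 pump members (-0.05 with upper-quartile scaling) and 0.26 for the 20 lysosomal members, and -0.02 for all genes. The median of all genes itself moved to -0.11 with upper-quartile scaling and to 0.12 with library totals. Without CE-26 these medians were 0.11, 0.01, 0.19 and 0.05. The biological coefficient of variation estimated by edgeR was 0.468 in SUDHL16 (0.339 after CE-26 was left out) and 0.0516 in SUDHL6, so that a change of a given size was harder to detect in SUDHL16. The plot of log2 fold changes by role shows this difference in the length of the error bars.

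**Figure D1:**
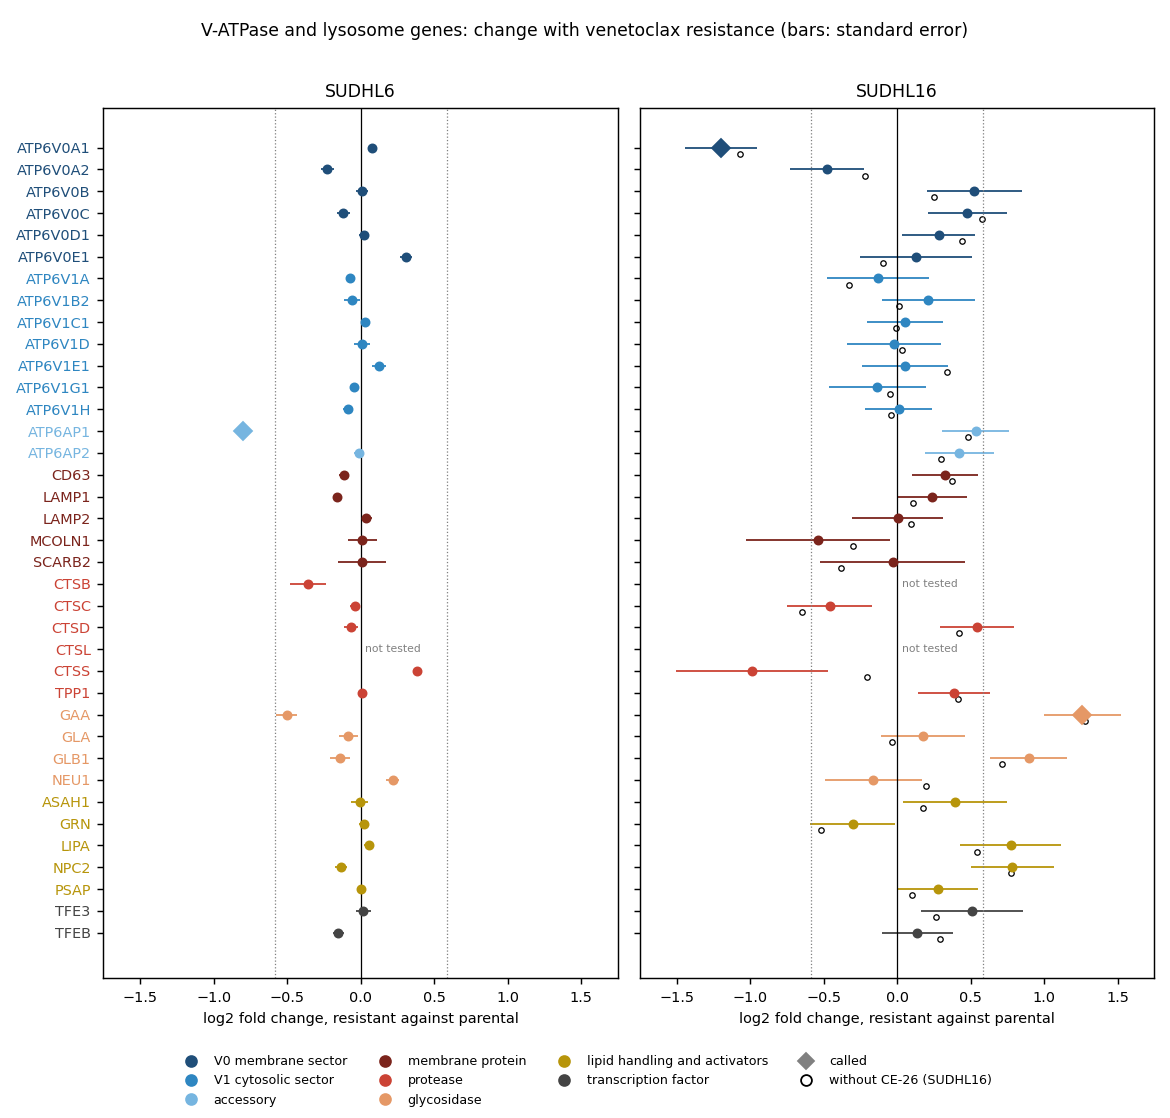
Log2 fold change of each member, resistant against parental, in SUDHL6 (left) and SUDHL16 (right), with bars for the standard error, diamonds for called members, dotted lines at 1.5-fold and open circles for the SUDHL16 fit without CE-26. ATP6AP1 stands alone at -0.80 in SUDHL6, and ATP6V0A1 at -1.20 and GAA at 1.26 are the 2 members called in SUDHL16, where further members lie past a dotted line with wide bars. CTSL was tested in neither line and CTSB in SUDHL6 alone.

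Among the accessory subunits of the pump, ATP6AP1 (Ac45), which assists assembly of the V0 sector and delivery of the pump, fell in resistant SUDHL6 cells. It lies on chromosome X (GRCh38, chrX:154428633-154436516, plus strand). Its levels were 95.3, 92.5 and 97.1 CPM in the parental libraries and 52.7, 55.5 and 55.7 CPM in the resistant libraries. The groups were far apart, and the libraries of a group lay close together. The level was 1.74-fold lower, with a log2 fold change of -0.80 (SE 0.03) and an adjusted p of 1.41e-09 by edgeR. In SUDHL16 the levels were 48.7, 48.5 and 63.0 CPM in parental and 64.3, 81.0 and 86.9 CPM in resistant libraries, higher in resistant cells without overlap, but the change of 0.53 (SE 0.23) did not pass (edgeR adjusted p = 0.257, and 0.48 without CE-26, adjusted p = 0.262). The SUDHL6 call was lost in a single fit of all 12 libraries (edgeR adjusted p = 0.0650), which takes on the larger spread of SUDHL16. ATP6AP2, the prorenin receptor, which is also an accessory protein of the pump, had log2 fold changes of -0.01 in SUDHL6 and 0.42 in SUDHL16 (0.30 when CE-26 was left out), and neither passed.

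In the V0 sector, ATP6V0A1, an isoform of the large subunit a through which protons pass, fell in resistant SUDHL16 cells. The gene is on chromosome 17 (GRCh38, chr17:42458844-42522582, plus strand). Parental levels were 280.4, 327 and 238 CPM and resistant levels were 125, 124 and 120.1 CPM. All 3 resistant libraries were alike and well below the lowest parental library. The log2 fold change was -1.20 (SE 0.24, edgeR adjusted p = 0.0279), and without CE-26 it was -1.07 (adjusted p = 0.0123). The call was lost without any one of the other 5 SUDHL16 libraries (CE-25, CE-27, CE-28, CE-29 or CE-30, edgeR adjusted p = 0.0816 to 0.137), with library totals, with no filter on low counts and with glmTreat, which tests against a 1.5-fold change, while the log2 fold change lay between -1.30 and -1.02 in every alternative. In SUDHL6 the levels were 78.0, 79.8 and 79.5 CPM in parental and 82.6, 85.5 and 81.7 CPM in resistant libraries, a log2 fold change of 0.07 that did not pass (edgeR adjusted p = 0.0531). Its paralog ATP6V0A2, the a subunit isoform found on Golgi and endosomal membranes, had a log2 fold change of -0.23 in SUDHL6, which passed the adjusted p but not the 1.5-fold threshold, and of -0.48 in SUDHL16 (-0.22 without CE-26), which did not pass. ATP6V0E1, a small membrane subunit, had a log2 fold change of 0.31 in SUDHL6, the highest of the sector there, which passed the adjusted p and was again under 1.5-fold, and of 0.13 in SUDHL16 (leaving out CE-26, -0.10). ATP6V0C, which forms most of the rotating proteolipid ring, had values of -0.12 in SUDHL6, which passed the adjusted p alone, and 0.48 in SUDHL16 (leaving out CE-26, 0.58), where CE-30 at 80.9 CPM stood above the other resistant libraries at 50.8 and 47.0 CPM. ATP6V0B, another ring subunit, and ATP6V0D1, which joins the ring to the central stalk, were at 0.01 and 0.02 in SUDHL6 and at 0.52 and 0.28 in SUDHL16 (0.25 and 0.44 without CE-26).

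None of the 7 members of the V1 sector was called, or passed the adjusted p alone, in either line. At an unadjusted p under 0.05, 3 of them passed in SUDHL6 and 0 in SUDHL16, and none of the 7 was called in any alternative run. Their log2 fold changes ran from -0.09 (ATP6V1H, a regulatory subunit) to 0.12 (ATP6V1E1, of the peripheral stalks) in SUDHL6. In SUDHL16 they ran from -0.13 (ATP6V1G1, which pairs with the E subunit in those stalks) to 0.21 (ATP6V1B2, the non-catalytic partner in the ATPase head). Without CE-26 the range in SUDHL16 was -0.33 (ATP6V1A, the subunit that hydrolyses ATP) to 0.34 (ATP6V1E1). ATP6V1C1, which bridges the stalks and the membrane sector, and ATP6V1D, of the central rotor, had values of 0.03 and 0.01 in SUDHL6 and of 0.05 and -0.02 in SUDHL16 (leaving out CE-26, -0.01 and 0.04).

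The summed level of the 15 pump members was 1043, 1045 and 1053 CPM in parental and 1010, 996 and 1000 CPM in resistant SUDHL6 libraries, without overlap. Left to the 14 members other than ATP6AP1, the sums were 948, 953 and 956 CPM in parental and 957, 941 and 945 CPM in resistant libraries, and the groups overlapped. In SUDHL16 the pump members summed to 1108, 1070 and 1109 CPM in parental and 850.2, 1142 and 1019 CPM in resistant libraries, and the groups overlapped.

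**Figure D2:**
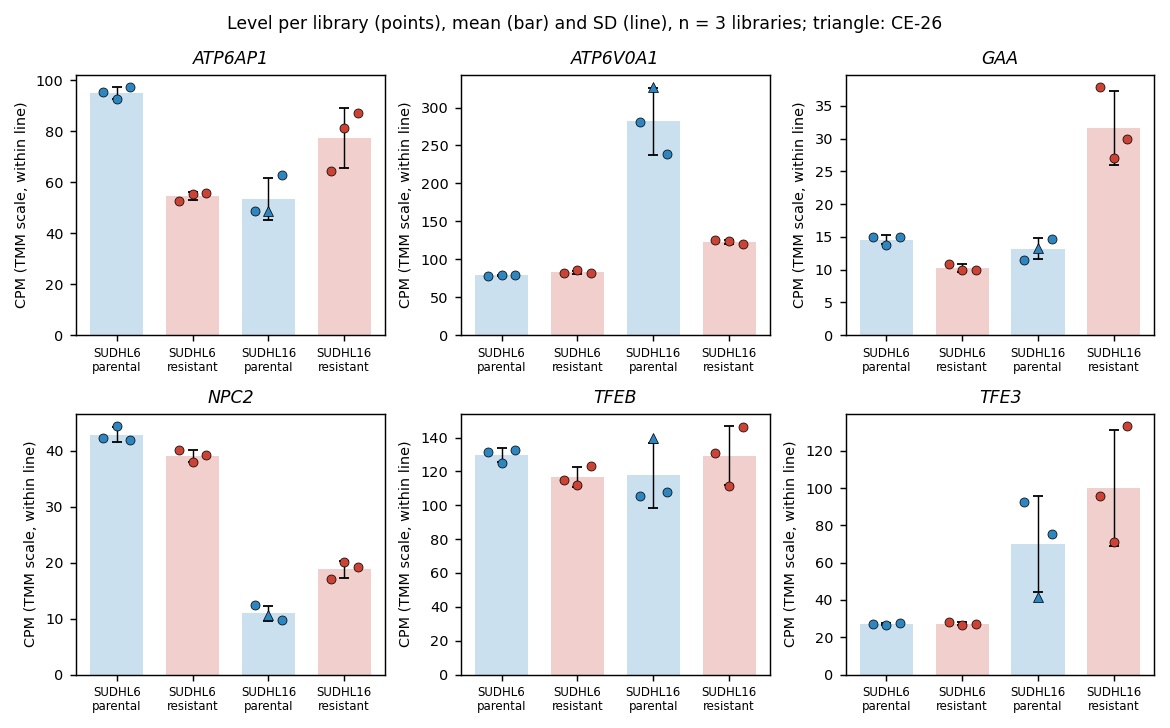
CPM on the TMM scale of 6 members in the 12 libraries (points, with CE-26 as a triangle), with the mean of each group as a bar from 0 and the SD as a line (n = 3 libraries). ATP6AP1 fell from 95.0 to 54.6 CPM on average in SUDHL6, ATP6V0A1 fell and GAA rose in SUDHL16, and TFE3 spread from 41.7 to 92.4 CPM within the SUDHL16 parental group.

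Among the glycosidases, GAA, the acid alpha-glucosidase that degrades glycogen in the lysosome, rose in resistant SUDHL16 cells. It lies on chromosome 17 (GRCh38, chr17:80101533-80119881, plus strand). Its levels were 11.5, 13.3 and 14.7 CPM in parental and 37.9, 27.04 and 29.9 CPM in resistant libraries. The lowest resistant library was well above the highest parental library. The log2 fold change was 1.26 (SE 0.26, edgeR adjusted p = 0.0310), and without CE-26 it was 1.28 (adjusted p = 0.0242). The call was lost without CE-25, CE-27, CE-28, CE-29 or CE-30 (edgeR adjusted p = 0.0879 to 0.131) and with glmTreat (adjusted p = 0.106), while the log2 fold change lay between 1.13 and 1.40 in every alternative. In SUDHL6 the order was the opposite, with 13.8 to 14.997 CPM in parental and 10.9, 10.0 and 9.9 CPM in resistant libraries and no overlap. That log2 fold change of -0.50 (SE 0.07) passed the adjusted p (edgeR, 1.50e-04) and stayed under the 1.5-fold threshold, at 1.42-fold.

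GLB1, the acid beta-galactosidase, had levels of 29.6, 18.5 and 32.2 CPM in parental and 51.9, 54.7 and 44.5 CPM in resistant SUDHL16 libraries, without overlap. Its log2 fold change of 0.89 did not pass (edgeR adjusted p = 0.100, and 0.71 without CE-26, adjusted p = 0.0776), and in SUDHL6 it was -0.14. DESeq2, limma voom and the single fit of all 12 libraries did call GLB1 in SUDHL16. These called 1775, 2648 and 2855 of all genes, against 833 in the main fit, and the single fit takes on the smaller spread of SUDHL6. GLA, the alpha-galactosidase that is deficient in Fabry disease, had values of -0.08 in SUDHL6 and 0.18 in SUDHL16 (leaving out CE-26, -0.03). NEU1, a sialidase, had a log2 fold change of 0.22 in SUDHL6, which passed the adjusted p but not the 1.5-fold threshold, and of -0.16 in SUDHL16 (0.20 without CE-26).

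Of the 6 proteases, none was called in either line or in any alternative run within a line, and at an unadjusted p under 0.05 there were 2 in SUDHL6 and 0 in SUDHL16. CTSS (cathepsin S), which trims the invariant chain during antigen presentation in B cells, had levels of 60.3, 61.1 and 60.7 CPM in parental and 78.9, 78.1 and 81.1 CPM in resistant SUDHL6 libraries. Its log2 fold change of 0.39 was the highest of the members in SUDHL6 and passed the adjusted p (edgeR, 2.82e-07), though not the 1.5-fold threshold. In SUDHL16 the value of -0.99 rested on CE-26, which held 238 CPM against 71.9 and 79.5 CPM in the other parental libraries, and without CE-26 it was -0.20. CTSC, which activates granule proteases, had values of -0.04 in SUDHL6 and -0.46 in SUDHL16 (-0.65 when CE-26 was left out). CTSD, the main aspartic protease of the lysosome, and TPP1, a tripeptidyl peptidase, had values of -0.07 and 0.01 in SUDHL6 and of 0.54 and 0.39 in SUDHL16 (leaving out CE-26, 0.42 for both).

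CTSB (cathepsin B) was scarce, at 3.5 to 5.2 CPM in SUDHL6, with a log2 fold change of -0.36 that passed the adjusted p alone. In SUDHL16 it was at 7.9 CPM in CE-26 and at most 0.549 CPM in the 5 other libraries, and it was not tested there. CTSL (cathepsin L) had at most 0.248 CPM in any SUDHL6 library and a count of 0 in all 6 SUDHL16 libraries.

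None of the 5 lysosomal membrane proteins was called in either line or in any alternative run within a line, and 2 in SUDHL6 and 0 in SUDHL16 had an unadjusted p under 0.05. LAMP1, an abundant glycoprotein that lines the lysosomal membrane, and CD63, a tetraspanin, had log2 fold changes of -0.16 and -0.11 in SUDHL6, and both passed the adjusted p but not the 1.5-fold threshold. In SUDHL16 these were 0.24 and 0.32, and without CE-26 0.11 and 0.38. LAMP2, the relative of LAMP1 that also serves chaperone-mediated autophagy, was at 0.04 in SUDHL6 and 0.00 in SUDHL16 (leaving out CE-26, 0.10). MCOLN1, the channel that releases calcium from lysosomes, was at 0.01 in SUDHL6 and -0.54 in SUDHL16 (-0.30 when CE-26 was left out), where all libraries were under 7 CPM. SCARB2, the receptor that carries glucocerebrosidase to lysosomes, was at 0.01 in SUDHL6 and -0.03 in SUDHL16 (leaving out CE-26, -0.38).

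Of the 5 members that handle lipids or activate their breakdown, none was called, and 1 in each line had an unadjusted p under 0.05. It was NPC2, which limma voom and the single fit of all 12 libraries did call in SUDHL16 (adjusted p = 0.0425 and 0.00469). These called 2648 and 2855 of all genes, against 833 in the main fit, and the single fit takes on the smaller spread of SUDHL6. NPC2, which carries cholesterol inside the lysosome, had levels of 42.3, 44.4 and 41.8 CPM in parental and 40.1, 37.9 and 39.2 CPM in resistant SUDHL6 libraries, lower without overlap. That log2 fold change of -0.13 passed the adjusted p (edgeR, 0.0226) and was under 1.5-fold. In SUDHL16 its levels were 12.4, 10.6 and 9.7 CPM in parental and 17.1, 20.1 and 19.2 CPM in resistant libraries, higher without overlap, with a log2 fold change of 0.78 that did not pass (edgeR adjusted p = 0.172, and 0.77 without CE-26, adjusted p = 0.129). LIPA, the lysosomal acid lipase, was at 0.05 in SUDHL6 and 0.77 in SUDHL16 (0.55 when CE-26 was left out), where CE-29 at 85.3 CPM was highest. ASAH1, the acid ceramidase, PSAP, the precursor of the saposin activators, and GRN, the progranulin precursor, were at -0.01, 0.00 and 0.02 in SUDHL6. In SUDHL16 they were at 0.39, 0.28 and -0.30, and without CE-26 at 0.18, 0.10 and -0.52.

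Neither transcription factor was called in either line or in any alternative run within a line. TFEB had levels of 131, 125 and 133 CPM in parental and 115, 112 and 123 CPM in resistant SUDHL6 libraries, with no overlap. The log2 fold change of -0.15 passed the adjusted p (edgeR, 0.00477), far below the 1.5-fold threshold. In SUDHL16 its levels were 106, 139.8 and 108 CPM in parental and 131, 111 and 146 CPM in resistant libraries, which overlapped with all libraries (0.14, edgeR adjusted p = 0.821, and 0.29 without CE-26, adjusted p = 0.491). TFE3 had levels of 26.9, 26.5 and 27.5 CPM in parental and 28.2, 26.3 and 27.3 CPM in resistant SUDHL6 libraries (0.02). In SUDHL16 it had 92.4, 41.7 and 75.4 CPM in parental and 95.8, 71.0 and 133 CPM in resistant libraries, which overlapped (0.51, edgeR adjusted p = 0.493, and 0.26 without CE-26, adjusted p = 0.668). RNA levels carry no information on where these factors were in the cell. The members that hold TCACGTGA in their promoters, shown above, had values of either sign. In SUDHL6 their log2 fold changes were 0.02 for ATP6V0D1, -0.04 for ATP6V1G1, -0.50 for GAA, -0.16 for LAMP1 and 0.01 for MCOLN1. In SUDHL16 they were 0.28, -0.13, 1.26, 0.24 and -0.54 in the same order, and without CE-26 they were 0.44, -0.05, 1.28, 0.11 and -0.30.

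**Figure D3:**
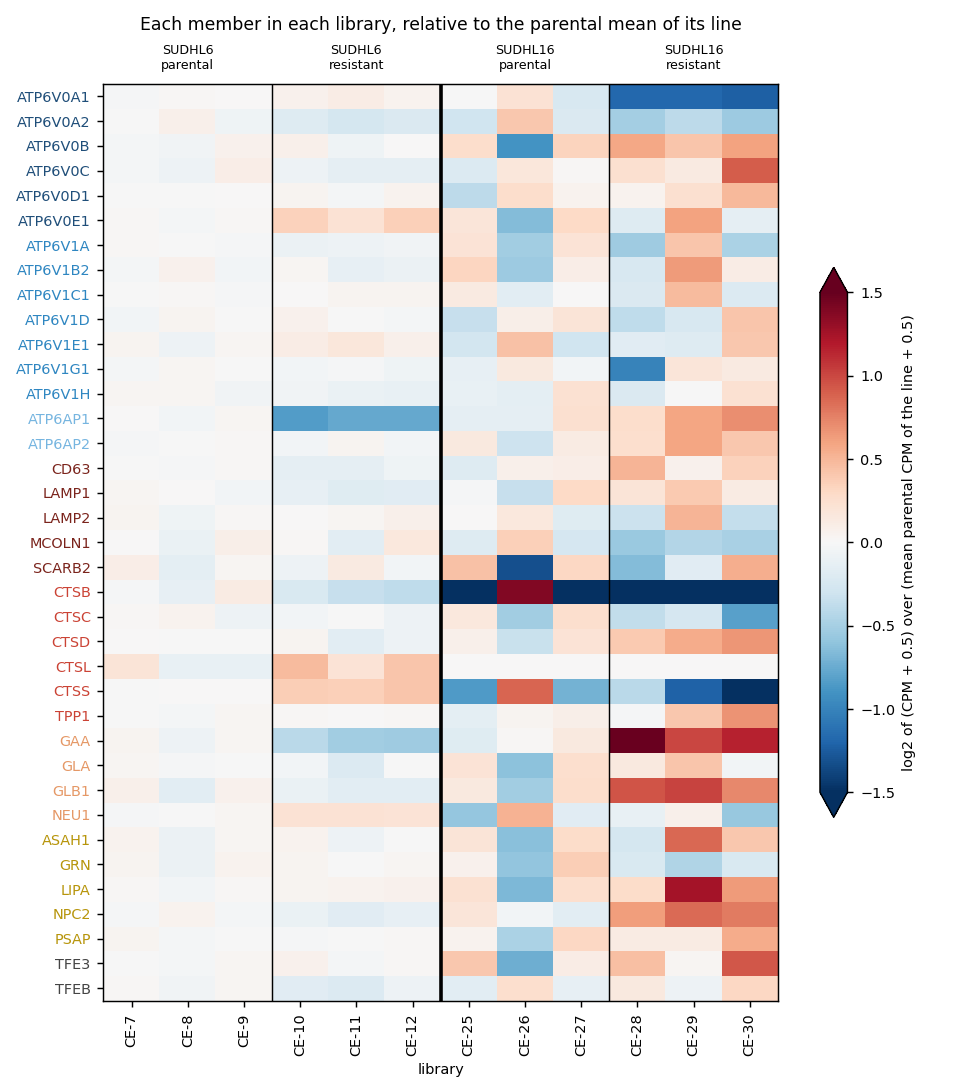
Level of each of the 37 members in each library, as log2 of (CPM + 0.5) over (mean parental CPM of the line + 0.5), with colours held at 1.5 beyond that size. The SUDHL6 libraries are pale except for ATP6AP1 and a few weaker members, and in SUDHL16 CE-26 departs from CE-25 and CE-27 in many members.

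Single libraries moved many members in SUDHL16 and none in SUDHL6. In CE-26, 5 of 35 members were more than 1.5-fold above both other parental libraries and 12 were more than 1.5-fold below both, against 27.9% and 22.1% of all genes. In the resistant library CE-29, 5 members stood above both others in this way (LAMP2, LIPA, ATP6V0E1, ATP6V1A and ATP6V1C1), against 5.88% of all genes. In CE-30, 3 members stood above both others (ATP6V1D, SCARB2 and ATP6V0C), against 11.3% of all genes, and in CE-28 1 stood above (CTSS) and 2 below (ASAH1 and ATP6V1G1), against 9.05% and 8.96%. No member of SUDHL6 stood apart by that much in any library.

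Whether a member responded differently in the lines was tested as the interaction of line and resistance in 1 fit of all 12 libraries, in which the term is the SUDHL16 log2 fold change minus that of SUDHL6. Of 36 members tested, 4 were called (11.1%, against 7.16% of all 19621 genes). ATP6V0A1 had a term of -1.22 (SE 0.17, edgeR adjusted p = 0.00126) and ATP6AP1 one of 1.36 (SE 0.24, adjusted p = 0.00453). GAA had a term of 1.79 (SE 0.24, edgeR adjusted p = 8.30e-04) and NPC2 one of 0.93 (SE 0.21, adjusted p = 0.0196). This fit gives each gene a shared spread for both lines, although the SUDHL6 libraries varied far less. The SE of the term was smaller than that of the SUDHL16 change fitted alone for ATP6V0A1 (0.17 against 0.24) and GAA (0.24 against 0.26). The same held for NPC2 (0.21 against 0.28), while ATP6AP1 had 0.24 against 0.23. These p-values may therefore be too small. For GAA, ATP6AP1 and NPC2 the resistant libraries were lower in SUDHL6 and higher in SUDHL16, without overlap in either line, whereas for ATP6V0A1 they were lower in SUDHL16 and slightly higher in SUDHL6. GLB1 had a term of 1.04 that did not pass (edgeR adjusted p = 0.0618). Without CE-26 these 4 members were called together with GLB1, CTSC and GRN, 7 in all (19.4%, against 14.0% of all 20959 genes tested in that fit).

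Compared per exon length (TPM), ATP6V0C and GRN were the most abundant members in parental SUDHL6 cells, at 206 ± 13.0 and 192 ± 10.2 TPM (SD, n = 3 libraries), and their libraries overlapped. PSAP at 114 ± 3.01 TPM and LAMP1 at 112 ± 2.63 TPM followed and overlapped each other, and CD63, ATP6V0B and ATP6V1G1 came next at 96.5, 96.5 and 94.9 TPM, with overlap between neighbours in this order. At the low end stood ASAH1 at 5.46, CTSB at 1.52, SCARB2 at 0.365 and CTSL at 0.0219 TPM, each apart from the next. The length used is that of all merged exons, 15378 bases for ASAH1 and 19388 for SCARB2, and these places depend on it. By mean CPM, ASAH1 (24.6) stood above GLA (19.2) and GAA (14.6) in parental SUDHL6 cells. In parental SUDHL16 cells GRN was highest at 118 ± 70.3 TPM (158 ± 12.2 TPM in the 2 libraries other than CE-26), followed by ATP6V1A at 79.9 ± 46.4 TPM (106 ± 7.46) and ATP6V0C at 70.9 ± 24.9 TPM (85.2 ± 3.40). With CE-26 included, every member there overlapped with the next in order. The TPM of CE-26 were low for most members, but their share of its protein-coding counts was not. Pump members made up 0.137% of these counts in CE-26 and 0.135% in both CE-25 and CE-27. Lysosomal members made up 0.158% in CE-26, 0.154% in CE-25 and 0.164% in CE-27. The lines were prepared with different kits, so levels were not tested between them.

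**Figure D4:**
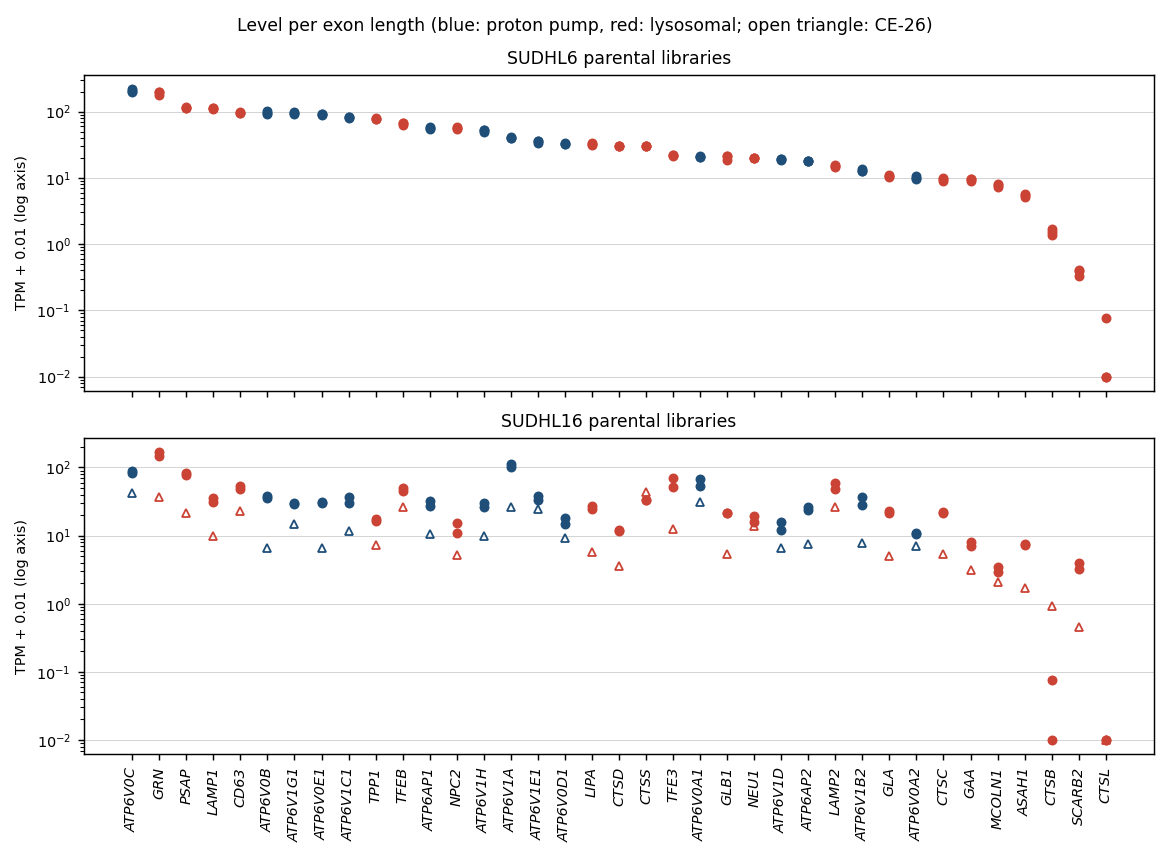
TPM + 0.01 (log axis) of each member in the 3 parental libraries of SUDHL6 (top) and SUDHL16 (bottom), with pump members in blue, lysosomal members in red and CE-26 as open triangles. Genes are ordered by their SUDHL6 mean, from 206 TPM for ATP6V0C to 0.0219 TPM for CTSL, and CE-26 lies below the other SUDHL16 libraries for most members.

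The genes around a member were described for the called members, with a few others as examples. Of 41 tested protein-coding genes that start within 1 Mb of ATP6AP1, 37 were lower in resistant SUDHL6 cells and 31 were called lower, with a median log2 fold change of -0.74, close to the -0.80 of ATP6AP1. Within 5 Mb, 52 of 63 were lower. In SUDHL16 the median of the 38 genes tested within 1 Mb of ATP6AP1 was 0.24. Around GAA in SUDHL16, 11 of 12 tested genes within 1 Mb were higher and 3 were called higher, with a median of 0.72 (1.13 without CE-26), and within 5 Mb 62 of 120 were higher. The median around GAA in SUDHL6 was 0.02 over 11 genes, while GAA was at -0.50 there. Around ATP6V0A1 in SUDHL16, 34 of 51 genes within 1 Mb were lower, with a median of -0.21 (without CE-26, -0.25), against -1.20 for ATP6V0A1. Of these 51 genes, 0 were called lower and 2 higher (2 and 7 without CE-26). Within 5 Mb of ATP6V0A1, 112 of 148 were lower, with a median of -0.37 (without CE-26, -0.39). Among members not called, 14 of 15 genes within 1 Mb of LAMP1 were lower in SUDHL6 (median -0.27). In SUDHL16, 9 of 10 around LIPA were higher (median 0.77, and 0.88 without CE-26). There, 28 of 32 around GRN were lower (median -0.54, and -0.47). Other uncalled members stood apart from their neighbours in SUDHL16, such as GLB1 (median -0.01, and -0.16) and NPC2 (0.12, and 0.24). The part of chromosomal position in these changes was not tested.

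**Figure D5:**
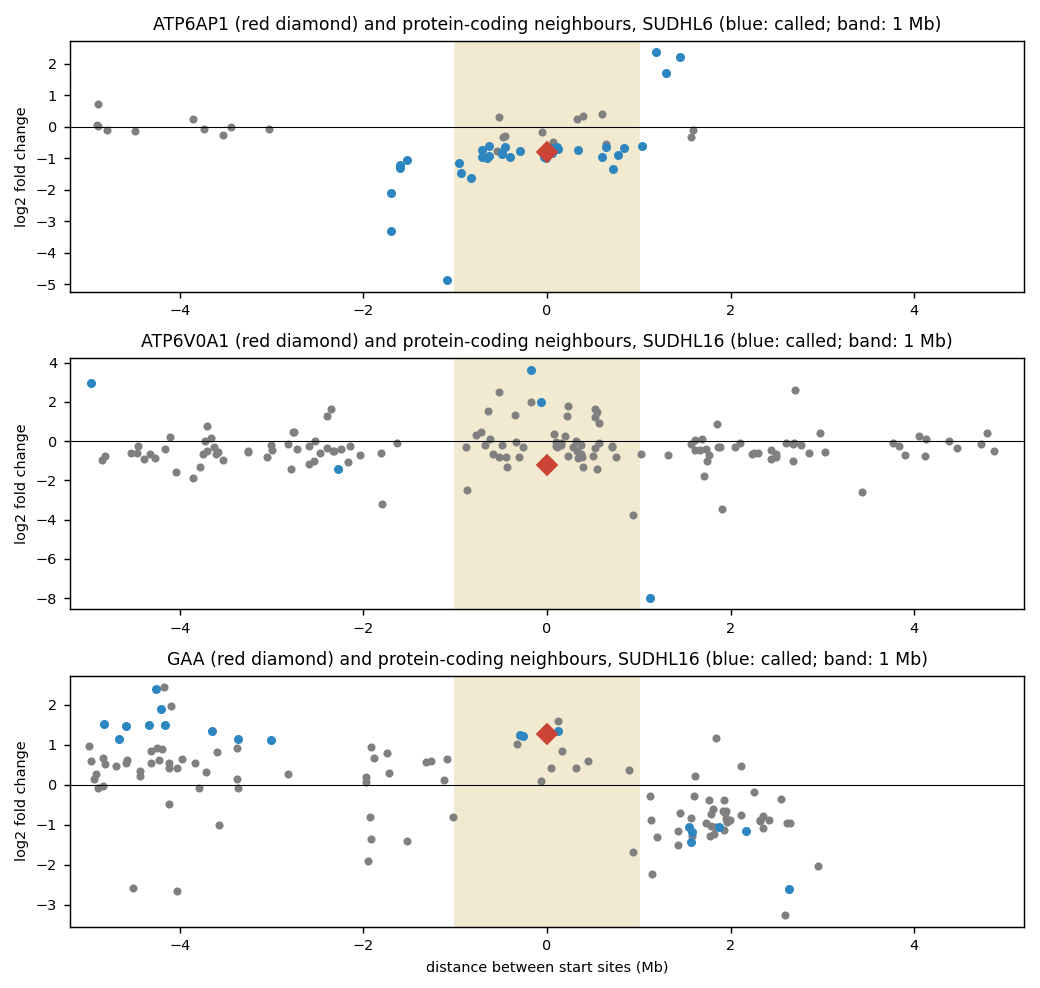
Log2 fold change of the tested protein-coding genes within 5 Mb of ATP6AP1 in SUDHL6 (top), ATP6V0A1 in SUDHL16 (middle) and GAA in SUDHL16 (bottom), by distance between start sites in Mb, with called genes in blue, the member as a red diamond and the band marking 1 Mb. Most neighbours of ATP6AP1 within 1 Mb lie near its own -0.80, whereas the neighbours of ATP6V0A1 scatter widely, with a median of -0.21 within 1 Mb and -0.37 within 5 Mb.

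Other genes of the pathway were taken from 5 lists written from general knowledge. Their counts stand beside the 8.96% of all genes called in SUDHL6. In SUDHL6, 1 of 17 other V-ATPase genes tested was called, ATP6V0E2, an isoform of the small e subunit, which fell (log2 fold change -0.89). Of 33 other lysosomal hydrolases, IDUA rose (0.61), and GALC (-1.05) and CTSO (-0.62, with groups that overlapped) fell. Of 25 other membrane and trafficking genes, NAGPA rose (0.60), and LAPTM5 (-0.68), NPC1 (-0.82) and LAPTM4B (-0.91) fell. NPC1 hands on cholesterol received from NPC2, and LAPTM5 is a lysosomal protein of blood cells that lowers B cell receptor levels. None of the 19 genes of the mTORC1 list or the 26 autophagy genes was called. At an unadjusted p under 0.05 there were 8 and 12 of them, while 37.3% of all genes in SUDHL6 passed even the adjusted p.

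In SUDHL16, where 5.30% of all genes were called (10.0% without CE-26), 2 of 16 other V-ATPase genes rose, DMXL2, a factor for assembly of the pump (log2 fold change 4.24, edgeR adjusted p = 5.51e-04), and RNASEK, a subunit-associated protein (1.09). DMXL2 had 7.06, 3.42 and 5.55 CPM in parental and 82.2, 124 and 112 CPM in resistant libraries. Leaving out CE-26, the log2 fold changes of DMXL2 and RNASEK were 4.08 and 1.17. Of 33 hydrolases, CTSH (cathepsin H, 1.94) and SGSH (1.35) rose and ARSA (-2.29) fell, with 2.21, 1.19 and -1.72 in the fit without CE-26. Of 26 autophagy genes, WIPI1 (1.77) and GABARAP (1.14) rose and VPS18 (-0.92) fell, with 1.92, 1.20 and -1.01 in that fit. None of the 23 membrane and trafficking genes or the 19 genes of the mTORC1 list was called. At an unadjusted p under 0.05 there were 6 and 5 of them, and the share of all genes at that level was not taken. Without CE-26, the lists other than the mTORC1 list, in the order given, had 3, 5, 0 and 3 genes called higher. They had 1, 1, 2 and 1 called lower, of 16, 33, 24 and 27 tested. These added ATP6V1F of the V1 sector (0.94) among the higher genes and LAPTM5 (-0.79) among the lower. TFEC of the mTORC1 list entered that fit only through the resistant group, so it is described below without a test. None of the other genes of the mTORC1 list was called there.

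TFEC, a relative of TFEB and TFE3 that can bind the same motif, was singled out after its values were seen. It had a count of 0 in CE-25 and CE-27, 10 counts (3.42 CPM) in CE-26, and 126, 305 and 588 counts (8.38, 14.2 and 24.8 CPM) in the resistant SUDHL16 libraries. The groups did not overlap, and no test is given because the gene entered the fit through the group where it is high. Against a floor of 3 counts per library in CE-25 and CE-27, the resistant mean was at least 90.7-fold higher. That bound covers counting error only and does not hold for CE-26, which it leaves out. CE-26 was at 3.42 CPM, against 8.38 CPM in the lowest resistant library, CE-28. All 6 SUDHL6 libraries had a count of 0 for TFEC.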

How the data were processed

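The deposited files hold, for each of the 12 libraries, whole-number read counts per Ensembl gene, which the authors made without normalization. The submitters' processing notes name Trim Galore, HISAT2, StringTie and edgeR and the build GRCh38. The counting tool, its annotation and any use of strand are not given in the sources used here, so members that overlap another coding gene (GLA with RPL36A, LIPA with IFIT genes, NPC2 with ISCA2, SCARB2 with FAM47E, ATP6V1D with PALS1, GLB1 with TMPPE, MCOLN1 with PNPLA6, and ATP6V0C and CTSD with readthrough genes) could share reads with it. Symbols and positions came from GENCODE release 44, in which 56558 of the 60675 identifiers were found.

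Groups were taken from the labels, and libraries are named by their titles. The members and lists were chosen with earlier results of these data known, so no test over a list was made. Each line was fitted alone with edgeR 4.0.16 (R 4.3.3) on the counts, with filterByExpr, TMM scaling and the two-sided quasi-likelihood test. Genes were called at a Benjamini-Hochberg adjusted p under 0.05 over all genes tested and a change of at least 1.5-fold, and the difference between the lines at the adjusted p alone. The SE is the log2 fold change divided by the square root of F. CPM are on the TMM scale, and TPM are counts per base of merged exons, scaled per library. Values in each library are given for members called in either line or for the difference between lines and for TFEB and TFE3, with a few others named for a large change. From each list up to 4 called genes were named, and other exceptions are marked. On simulated counts with 200 changed genes, the test recovered 90 of 98 changes of 1.5 on the log2 scale among 16361 genes in SUDHL6 and 19 of 94 among 15164 genes in SUDHL16, and for changes of 3 it recovered 95 of 96 and 64 of 90. For the difference between the lines, run on 19032 genes, 22 of 96 and 59 of 93 were recovered. Alternatives were DESeq2 1.42.0, limma 3.58.1 voom with quality weights, glmTreat, upper-quartile scaling, library totals, no filter, protein-coding genes only, a single fit of all 12 libraries, and each library left out. Tables and figures were made with Python 3.11.15, pandas 2.3.3, numpy 2.4.6 and matplotlib 3.10.9.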

Additional observations from a re-analysis of the deposited data

Results flagged for a closer look

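Resistance went with a different change in the 2 lines for 4 members, by the test of the difference itself (edgeR interaction term, SUDHL16 log2 fold change minus that of SUDHL6, adjusted over 19621 genes). The term was -1.22 for ATP6V0A1, 1.36 for ATP6AP1, 1.79 for GAA and 0.93 for NPC2. The range of the term over all alternatives run was -1.40 to -1.08 for ATP6V0A1, 1.21 to 1.57 for ATP6AP1 and 1.65 to 1.95 for GAA, and each stayed past the threshold. NPC2 ranged from 0.80 to 1.13 and did not pass in every alternative. Kit and instrument differ between the lines and cannot be told apart from them in this comparison. The joint fit also gives each gene a shared spread for both lines, although SUDHL6 libraries varied far less, so its p-values may be too small.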

How the results depend on the processing

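In SUDHL6, ATP6AP1 remained called in 13 of 14 alternatives, and in a single fit of all 12 libraries, which takes on the larger spread of SUDHL16, 0 members were called (edgeR adjusted p = 0.0650 for ATP6AP1). That fit called 140 of 19621 genes in SUDHL6. Leaving out 1 library at a time gave 1 member called each time, against 1369 to 1462 of all genes. The SUDHL6 medians then ranged from -0.0347 to -0.00290 for all members, from -0.0321 to 6.77e-05 for the pump (0.00430 with upper-quartile scaling) and from -0.0467 to 0.0134 for the lysosomal members. That of TFE3 in SUDHL6 ranged from -0.00766, without the resistant library CE-10, to 0.0426. In SUDHL16, where 2 members were called, there was 1 with library totals and 1 with no filter on low counts (GAA in both). Of all genes, these called 818 of 15708 and 898 of 41969. There were 4 with limma voom and 4 in the single fit (ATP6V0A1, GAA, GLB1 and NPC2 in both). Of all genes, these called 2648 of 15708 and 2855 of 19621, against 833 of 15708 in the main fit. With glmTreat, which tests against a 1.5-fold change, there were 0, against 517 of 15708 genes. Leaving out a library gave 0 to 2 members called, with 0 without CE-25, CE-27, CE-28, CE-29 or CE-30 and 2 without CE-26. Of all genes, 279 to 460 were called without CE-25, CE-27, CE-28, CE-29 or CE-30 and 1636 without CE-26. The adjusted p of ATP6V0A1 then ranged from 0.0123 to 0.137 and that of GAA from 0.0242 to 0.131, with the direction kept. The median of all members ranged from 0.0851 to 0.308, and that of the pump from -0.0456 to 0.205 over all alternatives. For the difference between the lines, leaving out a library gave 3 to 7 members called, 7 without CE-26, against 830 to 2930 of all genes. NPC2 was lost there without any one of the SUDHL6 libraries or CE-27, with library totals (edgeR adjusted p = 0.0529) and with no filter (adjusted p = 0.0954). The cause of these changes was not tested. No paired analysis was possible because the labels carry no replicate numbers, and numbers given in accession order pair no libraries. The low depth and composition of CE-26 limit every SUDHL16 value.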
